A study of Mus musculus with 45 samples.

Results

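The circadian clock of mouse liver is described here through 10 genes of its core loop and first output, Arntl (also called Bmal1), Npas2, Per1, Per2, Per3, Cry1, Nr1d1, Nr1d2, Dbp and Tef. They were chosen by symbol as transcription factors and repressors of the clock, and all 10 had a value among the 18180 genes measured. The mice were male C57Bl/6J with no genetic change, in 9 groups of 5 mice. 1 group was untreated and killed at 0 h. 4 groups received the vehicle, 1% hydroxyethylcellulose, and 4 received 300 mg/kg of acetaminophen (APAP), a drug that injures the liver, in that vehicle by oral gavage, and they were killed 3, 6, 9 or 24 h later. All mice, controls included, had been fasted for 16 h before dosing, and food was returned afterwards. They were 8 weeks old, an age stated with the description of the dose-ranging mice. The hour of day at dosing was not given in the sources used here, so times below are hours after gavage and not clock hours.

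In the core loop, ARNTL pairs with CLOCK or its relative NPAS2 and switches on genes that carry E-box elements, among them Per, Cry, Nr1d and Dbp. PER and CRY proteins then inhibit that pair, and NR1D1 and NR1D2 (REV-ERBα and REV-ERBβ) repress Arntl through elements that they share with the ROR activators. DBP and TEF are output factors that bind D-box elements. In liver the loop cycles over the day, feeding time and glucocorticoids can shift it, and it times much of metabolism.

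Each mouse gave 1 array, and the values are log2 RMA values, in which a difference of 1 is a doubling. Each value is for whole liver tissue, so fewer cells of a type and less RNA per cell cannot be told apart. A gene is called higher or lower where limma gave an adjusted p under 0.05 over all genes and a change of at least 1.5-fold. Nothing in the labels pairs the mice across groups, and p values rest on the spread between mice.

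3 arrays need naming before the results. APAP 6 h replicate 5 carried genes of the exocrine pancreas, a tissue next to the liver. All 14 of 14 such genes, a list chosen after their values were seen, were higher on it than on the other 44 arrays. Cpb1, a pancreatic carboxypeptidase, was 13.95 on it and 6.15 to 6.96 elsewhere, and Pnlip, pancreatic lipase, was 12.99 on it and 5.59 to 6.42 elsewhere. The 6 h differences of the 10 genes are therefore also given without this array. APAP 24 h replicates 1 and 3 lay apart from the other 3 of their group on the second principal component, at -47.3 and -41.65 against -24.56 to -22.19, and the 24 h differences of the 10 genes are also given without them. The 7 hepatocyte markers measured had a summed level of 16.93 to 17.12 on the log2 scale on every array, so each held liver RNA. That sum rests mostly on the brightest genes, such as Alb, which lies near the highest value on the arrays (15.04). It therefore says little of a loss of hepatocytes or of other tissue in a sample. None of the 7 was called between APAP and vehicle at 3, 6 or 24 h. At 9 h 1 was higher, beside 2.49% of all genes.

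Promoter windows of 300 bases, 250 before and 50 after the start site, were taken from RefSeq (build GRCm38.p6). Of the 10 genes, 9 matched an entry, with 12 windows in all. They are shown for the 3 genes that were higher after APAP at 1 or more times and for which an element was found, and for Dbp, which was lower at every time. Capitals mark the E-box (CACGTG), the D-box (TTATGTAA or TTACATAA) and the core of the element shared by REV-ERB and ROR (TAGGTCA or TGACCTA), searched on both strands.
Arntl, chr7:113207261-113207560, plus strand: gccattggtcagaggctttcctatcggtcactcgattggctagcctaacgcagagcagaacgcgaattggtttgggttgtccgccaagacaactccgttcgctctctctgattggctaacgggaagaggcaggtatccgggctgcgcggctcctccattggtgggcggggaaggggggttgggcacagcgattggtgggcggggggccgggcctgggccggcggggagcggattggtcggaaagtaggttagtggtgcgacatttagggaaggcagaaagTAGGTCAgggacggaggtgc
Per1, chr11:69098699-69098998, plus strand: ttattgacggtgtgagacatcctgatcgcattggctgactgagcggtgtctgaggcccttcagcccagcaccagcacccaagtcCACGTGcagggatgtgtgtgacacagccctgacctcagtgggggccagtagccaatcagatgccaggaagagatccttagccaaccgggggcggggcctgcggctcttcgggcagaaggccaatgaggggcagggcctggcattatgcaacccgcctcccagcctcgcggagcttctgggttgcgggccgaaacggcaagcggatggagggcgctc
Cry1, chr10:85185005-85185304, minus strand: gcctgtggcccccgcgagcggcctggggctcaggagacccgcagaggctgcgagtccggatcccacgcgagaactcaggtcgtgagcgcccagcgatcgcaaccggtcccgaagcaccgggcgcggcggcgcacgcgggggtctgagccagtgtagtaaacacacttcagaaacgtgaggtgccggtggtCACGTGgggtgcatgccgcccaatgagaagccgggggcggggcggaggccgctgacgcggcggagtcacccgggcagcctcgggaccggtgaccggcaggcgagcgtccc
Dbp, chr7:45704997-45705296, plus strand: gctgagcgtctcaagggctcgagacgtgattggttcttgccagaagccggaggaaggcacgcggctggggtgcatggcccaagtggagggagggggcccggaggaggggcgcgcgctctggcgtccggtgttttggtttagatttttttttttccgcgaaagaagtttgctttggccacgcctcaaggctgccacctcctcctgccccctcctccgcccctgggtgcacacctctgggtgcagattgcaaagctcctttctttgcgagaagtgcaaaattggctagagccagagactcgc
Arntl and Per1 each had another window, not shown, with no match. The TAGGTCA core stood 30 bases after this Arntl start site, and E-boxes stood 166 bases before this Per1 start site and 60 bases before that of Cry1. Both Tef windows held an E-box, and the Per3 window held a pair of D-boxes. Of the 12 windows, 4 held an E-box, 1 a D-box and 1 the TAGGTCA core. Among all 32851 windows the shares were 7.15%, 0.938% and 2.61%. A match is a description of letters and not a site. No letters matched in the Dbp window, which says nothing of elements outside it.

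The vehicle groups were read as the cycle without the drug. The untreated mice were fasted and not gavaged, while the vehicle mice were gavaged and then had food again. Time of day, feeding and gavage therefore cannot be told apart in the vehicle changes below. After vehicle, the transcriptional activators fell and then returned, while Per2 and Dbp ran the other way. Arntl was 9.69 ± 0.226 (SD, n = 5) in the untreated mice, and 9.39 ± 0.288, 8.08 ± 0.388, 7.88 ± 0.214 and 9.45 ± 0.235 in the 3, 6, 9 and 24 h vehicle mice. The 9 h level was 3.50-fold below the untreated level (log2 change -1.81, SE 0.12, limma adjusted p = 5.92e-07), with no overlap between the mice. Npas2, the partner that can take the place of CLOCK, was 6.97 ± 0.239 in the untreated mice and 6.12 ± 0.0832 and 6.15 ± 0.0833 at 6 and 9 h, 1.79-fold and 1.76-fold lower. Both activators were near their untreated levels at 24 h, with log2 differences of -0.24 (adjusted p = 0.185) and -0.04 (adjusted p = 0.860).

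Dbp showed the widest swing of the 10 genes after vehicle. It was 8.57 ± 0.496 in the untreated mice, and 9.16 ± 0.872, 10.90 ± 0.41, 11.22 ± 0.0829 and 8.62 ± 0.522 in the vehicle mice, in the same order. The rise to 9 h was 6.29-fold (log2 change 2.65, SE 0.18, adjusted p = 9.42e-07), and the 9 h mice lay within 11.12 and 11.32. At 24 h it differed from the untreated level by a log2 value of 0.05 (adjusted p = 0.927). Per2, a repressor whose gene also answers feeding and hormones, rose earlier. It was 6.88 ± 0.11 untreated and 8.56 ± 0.178 at 3 h, a 3.20-fold rise (adjusted p = 4.99e-07), then 8.90 ± 0.55, 8.97 ± 0.214 and 7.84 ± 0.281 at 6, 9 and 24 h. Unlike Dbp, it was still 1.94-fold above the untreated level at 24 h (log2 change 0.95, SE 0.11, adjusted p = 4.43e-05), and the 2 groups of mice did not overlap.

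Per1, another repressor and a target of glucocorticoids, was 9.32 ± 0.152 untreated and 9.07 ± 0.505, 9.87 ± 0.306, 9.92 ± 0.19 and 8.85 ± 0.382 after vehicle. Its 9 h rise of 1.51-fold (adjusted p = 5.65e-04) was just past the threshold, and the call was lost without untreated replicate 1 or 5 or vehicle 9 h replicate 1, 3 or 4. Per3, Nr1d2 and Tef were each higher at 9 h than in the untreated mice by less than 1.5-fold, at 1.39-fold, 1.43-fold and 1.34-fold, with adjusted p of 6.81e-04, 3.14e-04 and 0.00552. Cry1, a repressor of the ARNTL pair, had its lowest mean at 9 h, 6.77 ± 0.482 against 7.32 ± 0.215 untreated (adjusted p = 0.0577). Nr1d1 stood at 9.45 ± 0.222 untreated and between 8.92 ± 0.263 and 9.19 ± 0.256 after vehicle.

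Against the untreated mice, which all 4 vehicle comparisons share, 1, 2, 3 and 1 of the 10 genes were called higher at 3, 6, 9 and 24 h, where 1.14%, 1.71%, 2.03% and 2.31% of all genes were. Called lower were 0, 2, 2 and 0, against 0.853%, 1.19%, 1.84% and 2.09% of all genes. In the limma fits without a lower call, 3 members were lower at 3 h and 2 at 24 h at an unadjusted p under 0.05. Across the 4 vehicle times, 8 of the 10 passed the limma F test with a span of group means of at least 1.5-fold, where 4.58% of all genes did. Per3 (a log2 span of 0.38, adjusted p = 0.00108) and Nr1d1 (0.26, adjusted p = 0.5682) did not reach it. The Cry1 call (1.60-fold, adjusted p = 0.0364) was lost in 8 of the 20 fits that left out 1 array, those without replicate 1 of the 3, 6, 9 or 24 h mice, replicate 3 or 5 at 9 h, or replicate 4 or 5 at 24 h.

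**Figure D1:**
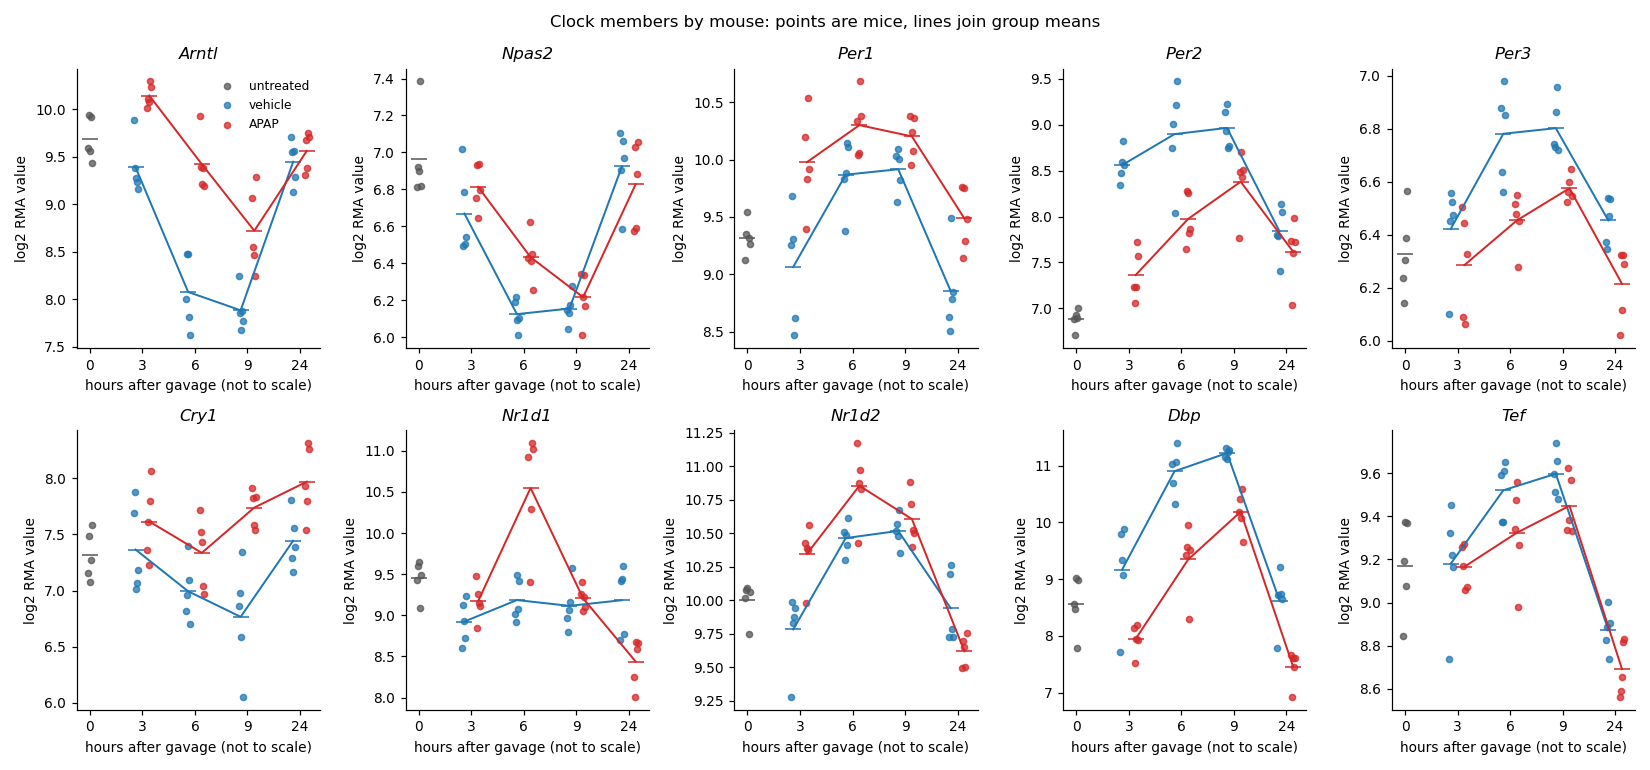
Log2 RMA value of each of the 10 clock genes (vertical axis) against hours after gavage (horizontal axis, evenly spaced and not to scale), with each point 1 mouse, horizontal marks at the group means and lines joining them for vehicle (blue) and APAP (red); untreated mice (grey) stand at 0 h. Arntl fell to 7.88 at 9 h after vehicle and stood at 8.72 after APAP, Dbp was lower after APAP at every time, and Nr1d1 reached 10.55 only in the APAP 6 h group mean.

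Every role held a called member between APAP and vehicle: an activator (Arntl) higher, an output factor (Dbp) lower, and repressors in both directions. Against vehicle at the same hour, Dbp was lower at all 4 times, and for the first 3 of them Arntl was higher and Per2 lower. After 3 and 6 h, 2 genes were called higher and 2 lower of 10, against 1.68% higher and 2.34% lower of all genes for the first time and 2.29% and 3.03% for the second. The 9 h mice again gave 2 higher and 2 lower, against 2.49% and 2.05%. The 24 h mice gave 1 higher and 2 lower, against 2.86% and 1.82%. The median log2 difference of the 10 genes was 0.19, 0.33, 0.07 and -0.20 at the 4 times, beside 0.02, 0.01, -0.03 and -0.05 over all genes.

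**Figure D2:**
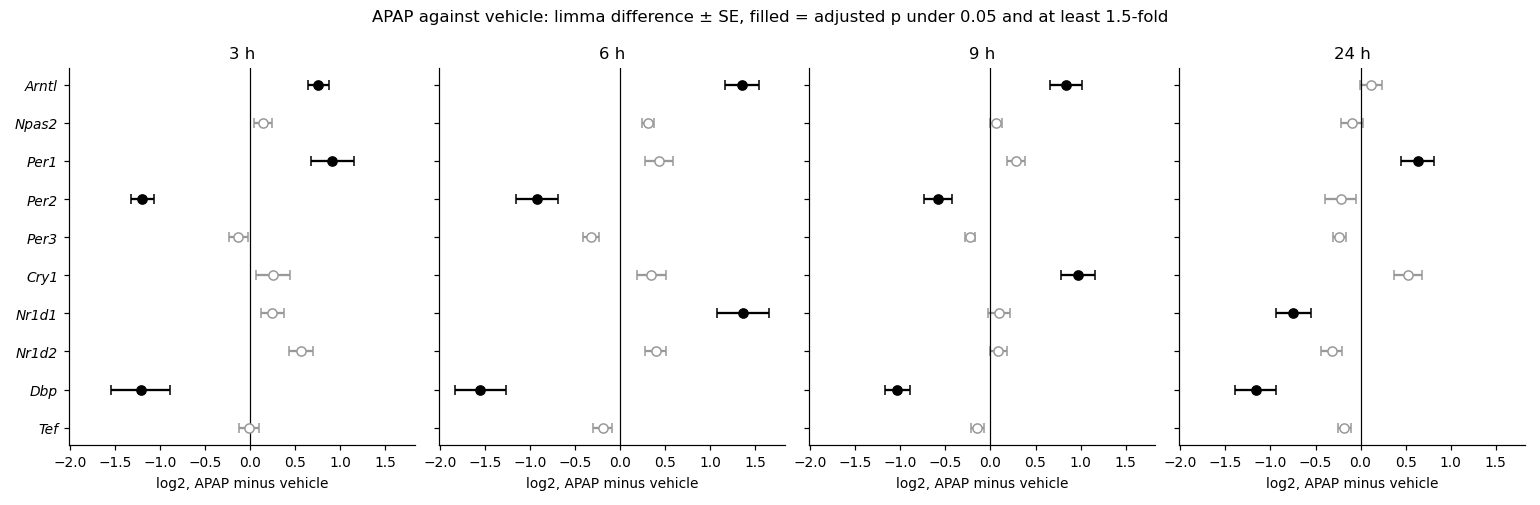
Limma log2 difference, APAP minus vehicle (horizontal axis, bars ± SE), for each clock gene (vertical axis) in 4 panels for 3, 6, 9 and 24 h, with 5 mice per group; filled points are called. Dbp lies left of 0 in all 4 panels, from -1.03 to -1.55, and Arntl moves from 1.35 at 6 h to 0.12 at 24 h.

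Among the activators, Arntl changed and Npas2 moved less. At 3 h Arntl was 10.01, 10.11, 10.08, 10.30 and 10.23 in the APAP mice and 9.88, 9.38, 9.28, 9.24 and 9.16 in the vehicle mice, 1.69-fold higher (log2 difference 0.76, SE 0.12, adjusted p = 6.04e-04). Every APAP mouse lay above every vehicle mouse. At 6 h it was 9.93, 9.39, 9.21, 9.39 and 9.19 after APAP and 8.00, 8.48, 8.48, 7.81 and 7.62 after vehicle, 2.54-fold higher (1.35, SE 0.19, adjusted p = 4.06e-04). The mice were again apart, and the difference without the array with pancreatic genes was 1.40 (adjusted p = 6.70e-04). By 9 h the APAP mice were at 9.07, 8.55, 8.46, 8.24 and 9.29 and the vehicle mice at 8.24, 7.85, 7.68, 7.87 and 7.77, 1.79-fold apart (0.84, SE 0.18, adjusted p = 0.00429), and the lowest APAP mouse and the highest vehicle mouse met. At 24 h the arms lay together, with 9.56 ± 0.202 after APAP and 9.45 ± 0.235 after vehicle (adjusted p = 0.478), and without APAP 24 h replicates 1 and 3 the difference was 0.26 (adjusted p = 0.160).

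Arntl fell in both arms between 3 and 9 h, from a higher start and to a higher end after APAP. In the order of its 9 group means, APAP 3 h (10.15) stood first and above all mice of the next group, untreated (9.69), and every later neighbour overlapped, down to vehicle 9 h (7.88). Npas2 was higher by 0.31 at 6 h (SE 0.07, adjusted p = 0.00524), a 1.24-fold difference with no overlap between mice, and by 0.35 without the array with pancreatic genes (adjusted p = 0.00185). It differed by 0.14 and 0.06 at 3 and 9 h, with adjusted p of 0.338 and 0.558. At 24 h it differed by -0.10 (adjusted p = 0.548), and by 0.07 without the 2 APAP arrays that lay apart (adjusted p = 0.712).

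The repressors of the ARNTL pair went separate ways. At 3 h Per2 was 7.23, 7.06, 7.24, 7.72 and 7.57 after APAP and 8.34, 8.48, 8.59, 8.83 and 8.56 after vehicle, 2.29-fold lower (-1.20, SE 0.12, adjusted p = 2.42e-05). All vehicle mice were above all APAP mice, and the APAP mice were above the untreated mice, which ran from 6.71 to 7.01. At 6 h it was 1.90-fold lower (-0.92, SE 0.24, adjusted p = 0.0134, and -0.90 with adjusted p = 0.0272 without the array with pancreatic genes). Here 1 vehicle mouse, at 8.04, lay among the APAP mice, which ran from 7.65 to 8.28. The 9 h difference was 1.502-fold (-0.59, SE 0.16, adjusted p = 0.0140), at the threshold. It fell below 1.5-fold without vehicle 9 h replicate 1 or 3 or APAP 9 h replicate 1 (-0.54, -0.52 and -0.43), or with arrays re-centred on their medians (-0.58). At 24 h the difference was -0.22 (adjusted p = 0.338), and -0.26 without the 2 APAP arrays that lay apart (adjusted p = 0.426).

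Per1 was higher where it changed. At 3 h it was 10.20, 9.39, 9.83, 10.54 and 9.92 after APAP and 9.25, 9.68, 9.30, 8.47 and 8.62 after vehicle, 1.88-fold higher (0.91, SE 0.24, adjusted p = 0.0162), with 1 APAP mouse below the highest vehicle mouse. It stood 1.35-fold and 1.22-fold above vehicle at 6 and 9 h, with adjusted p of 0.0639 and 0.0559, and the 6 h log2 difference without the array with pancreatic genes was 0.41 (adjusted p = 0.107). At 24 h it was 9.76, 9.15, 9.76, 9.29 and 9.48 after APAP and 8.63, 8.51, 9.50, 8.79 and 8.85 after vehicle, 1.55-fold higher (0.63, SE 0.18, adjusted p = 0.0262). This 24 h call was lost in 6 of the 10 fits that left out 1 array, those without vehicle replicate 1, 2, 4 or 5 (0.58, 0.55, 0.62 and 0.63) or APAP replicate 1 or 3 (0.56 and 0.57). Without both APAP arrays that lay apart, it was 0.45 (adjusted p = 0.134).

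Per3 differed after APAP by -0.14, -0.33, -0.23 and -0.24 on the log2 scale at the 4 times, under 1.5-fold at each. The adjusted p was 0.390 at 3 h and 0.0134, 0.00834 and 0.0306 at 6, 9 and 24 h, and the mice did not overlap at those last 3 times. Without the array with pancreatic genes the 6 h difference was -0.33 (adjusted p = 0.0245). Without APAP 24 h replicates 1 and 3 the 24 h difference shrank to -0.14 (adjusted p = 0.138). Cry1 was called at 9 h. There it was 7.91, 7.83, 7.58, 7.54 and 7.84 after APAP and 6.87, 6.98, 6.59, 7.34 and 6.05 after vehicle, 1.96-fold higher (0.97, SE 0.19, adjusted p = 0.00228). The APAP mice were close together and above all vehicle mice, while the vehicle mice spread over more than 1 log2 unit. At 24 h Cry1 was higher by 1.44-fold (0.53, SE 0.16, adjusted p = 0.0311), and it passed 1.5-fold without vehicle 24 h replicate 1 (0.62) or APAP 24 h replicate 2 (0.63). Without APAP 24 h replicates 1 and 3 it was 0.59, and the adjusted p of 0.0583 no longer met the threshold. At 3 and 6 h Cry1 differed by 0.25 and 0.34 (adjusted p = 0.378 and 0.151), and at 6 h by 0.43 without the array with pancreatic genes (adjusted p = 0.0678).

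Nr1d1 was called at 6 and 24 h, in opposite directions. At 6 h after APAP it was 10.92, 9.40, 10.30, 11.09 and 11.03, and after vehicle 9.01, 8.92, 9.50, 9.08 and 9.42. The APAP mean was 2.57-fold higher (1.36, SE 0.29, adjusted p = 0.00490). 4 of the 5 APAP mice lay above every vehicle mouse, and replicate 2 lay among them. Replicate 5 was the array with pancreatic genes, and without it the difference was 1.24 (SE 0.30, adjusted p = 0.0113). At 3 and 9 h the differences were 0.25 and 0.09 (adjusted p = 0.210 and 0.635). At 24 h Nr1d1 was 8.25, 8.01, 8.67, 8.60 and 8.67 after APAP and 8.70, 9.41, 9.44, 9.60 and 8.77 after vehicle, 1.68-fold lower (-0.75, SE 0.20, adjusted p = 0.0193) with no overlap. Without APAP 24 h replicates 1 and 3 it was -0.76 with an adjusted p of 0.0511, and no longer called.

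In the order of the 9 groups, Nr1d1 was highest at APAP 6 h (10.55) and lowest at APAP 24 h (8.44), and each group overlapped the next. Its paralog Nr1d2 was not called at any of the 4 times. It was higher by 0.56 at 3 h (SE 0.14, adjusted p = 0.00976), 1.48-fold and just under the threshold, and it passed it without vehicle 3 h replicate 2, 4 or 5 or APAP 3 h replicate 2 (0.62, 0.59, 0.60 and 0.66). It was higher by 0.39 at 6 h (adjusted p = 0.0295), and the differences were 0.09 at 9 h (adjusted p = 0.517) and -0.32 at 24 h (adjusted p = 0.0580). Without the array with pancreatic genes the 6 h difference was 0.40 (adjusted p = 0.0452), and without APAP 24 h replicates 1 and 3 the 24 h difference was -0.29 (adjusted p = 0.179).

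Dbp, the output factor, was the only one of the 10 genes called at every time. At 3 h it was 8.14, 7.52, 7.94, 8.20 and 7.93 after APAP and 7.72, 9.80, 9.33, 9.07 and 9.89 after vehicle, 2.32-fold lower (-1.22, SE 0.33, adjusted p = 0.0182). Vehicle 3 h replicate 1, at 7.72, lay among the APAP mice and the other 4 vehicle mice above them. At 6 h it was 9.42, 9.56, 9.95, 8.29 and 9.51 after APAP and 11.03, 10.70, 10.32, 11.06 and 11.40 after vehicle, 2.94-fold lower (-1.55, SE 0.29, adjusted p = 0.00203, and -1.60 without the array with pancreatic genes). At 9 h it was 10.19, 10.41, 10.08, 10.60 and 9.66 after APAP, against 11.15, 11.32, 11.12, 11.24 and 11.28 after vehicle, 2.05-fold lower (-1.03, SE 0.14, adjusted p = 2.12e-04). The arms were apart at both times.

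At 24 h Dbp was 7.66, 6.92, 7.61, 7.46 and 7.62 after APAP and 7.78, 8.72, 9.22, 8.73 and 8.65 after vehicle, 2.24-fold lower (-1.17, SE 0.23, adjusted p = 0.00579), again without overlap. Without APAP 24 h replicates 1 and 3 it was -1.29 (adjusted p = 0.0125). After APAP Dbp went from 7.95 ± 0.266 at 3 h to 10.19 ± 0.358 at 9 h and to 7.45 ± 0.307 at 24 h, a span of 6.65-fold beside 6.07-fold after vehicle. Tef, of the same family, differed by -0.01, -0.20, -0.15 and -0.18 at the 4 times, with adjusted p from 0.0708 to 0.942. Without the arrays named above the 6 h difference was -0.18 (adjusted p = 0.281) and the 24 h one -0.13 (adjusted p = 0.285).

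Beside the 24 h differences, 2 of the 4 neutrophil markers measured were called higher after APAP, S100a8 and S100a9 (2.62 and 2.12), beside 2.86% of all genes, and the summed level of the 4 ran from 9.57 to 12.74 after APAP and from 9.18 to 9.62 after vehicle. No marker has a true 0 on this scale. Their part in the clock differences was not tested. Cxcr2 and Mmp8, also of the 4, differed by 0.09 and 0.17 at 24 h and were not called. S100a8 and S100a9 were also called at 9 h (2.04 and 1.62), beside 2.49% of all genes. At 6 h they were not called (1.01 and 0.68, limma adjusted p = 0.077 and 0.062). At 3 h the sum of the 4 ran from 9.64 to 10.09 after APAP and from 9.27 to 9.55 after vehicle. There S100a8 and S100a9 were called (0.83 and 0.66), beside 1.68% of all genes.

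Whether the APAP difference changed between times was tested over the 40 APAP and vehicle arrays. From 3 to 6 h no gene of the 10 was called in either direction, where 0.204% of all genes had a difference that went up and 0.044% one that went down. At an unadjusted limma p under 0.05 there were 2 of the 10. The largest of the 10 was Nr1d1 (1.12, SE 0.31, adjusted p = 0.0909), which was called without APAP 6 h replicate 2. From 6 to 9 h the Nr1d1 difference fell by 1.27 (SE 0.31, adjusted p = 0.0178), the 1 call of the 10, against 0.594% of genes up and 0.099% down. From 9 to 24 h, where 1.74% went up and 1.24% down, Arntl was the 1 call, with a fall of 0.72 (SE 0.25, adjusted p = 0.0484). That call was lost in 22 of the 40 fits that left out 1 array, with every group of mice among them.

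From 3 to 24 h, 1 of the 10 went up and 3 went down, against 6.03% and 2.21% of all genes. The Per2 difference went up by 0.98 (SE 0.28, adjusted p = 0.00649), from lower to near vehicle. Arntl, Nr1d1 and Nr1d2 went down by -0.64, -0.99 and -0.88, with adjusted p of 0.0371, 0.0118 and 2.94e-04. The Arntl call was lost in 10 of the 40 fits that left out 1 array and without both APAP 24 h arrays that lay apart, while the other 3 kept theirs in all of these. Dbp changed by 0.05 (SE 0.41, adjusted p = 0.930) between these times.

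The APAP mice had a time course of their own. Across its 4 times, 9 of the 10 genes passed the F test with a span of at least 1.5-fold, where 10.8% of all genes did, and Per3 (1.28-fold) did not. The Cry1 call was lost in 4 of the 20 fits that left out 1 array, those without APAP 6 h or APAP 24 h replicate 4 or 5, and without APAP 24 h replicates 1 and 3 together. The Npas2 call was lost without APAP 9 h replicate 2. 6 of the 10 had a smaller span after APAP than after vehicle, as 31.22% of all genes did. The spans of Arntl were 1.56 after vehicle and 1.42 after APAP, and those of Per2 1.13 and 1.02. Nr1d1 and Nr1d2 had wider spans after APAP, at 2.11 against 0.26 and at 1.23 against 0.73. With 4 times and no sample between 9 and 24 h, neither phase nor period can be read from these groups.

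**Figure D3:**
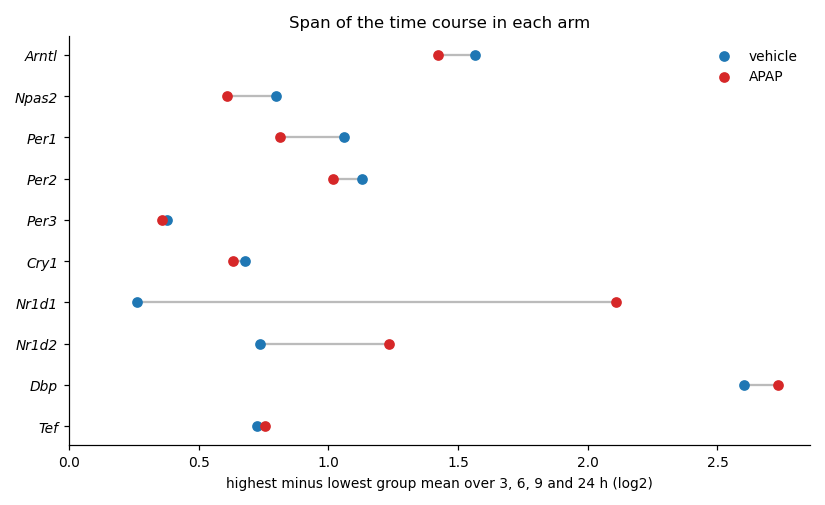
Highest minus lowest group mean over 3, 6, 9 and 24 h on the log2 scale (horizontal axis, from 0) for each clock gene (vertical axis) after vehicle (blue) and APAP (red), joined by a line. Nr1d1 goes from 0.26 to 2.11, and Dbp has the widest span in each arm, 2.60 and 2.73.

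Genes that ran most like 4 of the members were sought by Pearson's r over the 9 group means, among 1360 genes with a span of at least 2-fold. The points share mice with the tests above, so these are descriptions with n = 9. Dbp was nearest to Usp2 (r = 0.9146), a deubiquitinase under clock control, A930033H14Rik (0.9052), Per2 (0.8324) and Nmrk1 (0.8213). Arntl was nearest to Clpx (0.9176), Pnrc1 (0.8941), Wipi1 (0.8705) and Rnf125 (0.8631), and the 2 genes furthest in the opposite sense were Dbp (-0.9272) and Slc16a12 (-0.9182). For Per1 they were Gnat1 (0.9291), Arhgef26 (0.927), Coq10b (0.8983) and Cep85l (0.8859). For Nr1d1 the nearest included Cpb1 (0.9451), Reg2 (0.9441) and Cela3b (0.9351), genes of the exocrine pancreas that were high on APAP 6 h replicate 5. Without that array, none of these remained among the 4 nearest, and the nearest were Polg2 (0.9202), Col13a1 (0.8239), 1810010H24Rik (0.8155) and 2310034O05Rik (0.7852). For Arntl, Denn2b (0.8518) then took the place of Wipi1 among the 4 nearest. Those of Dbp and of Per1 were the same genes.

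Of 19 other clock genes, those called higher numbered 2, 2, 1 and 0 over the 4 times, where 1.68%, 2.29%, 2.49% and 2.86% of all genes were. Those called lower numbered 0, 2, 2 and 0, beside 2.34%, 3.03%, 2.05% and 1.82% of all genes. The median log2 differences of the list were 0.08, -0.02, -0.01 and 0.003, beside the medians of all genes given above. The values of this and the other lists are those with all arrays. At 24 h, 5 of the 19 had an unadjusted limma p under 0.05. Nfil3, which competes with DBP and its relatives for D-boxes, was higher by 1.65, 2.55 and 2.75 at 3, 6 and 9 h (adjusted p = 5.35e-05, 1.01e-06 and 6.86e-06) and differed by 0.10 at 24 h (adjusted p = 0.601). Rora, an activator of Arntl, was higher by 0.70 and 0.80 at 3 and 6 h. Hlf, another D-box factor of the DBP family, was lower by -0.70 at 6 h, and Usp2 was lower by -1.09 and -0.95 at 6 and 9 h. Bhlhe40, a repressor at E-boxes, was lower by -0.69 at 9 h. Clock itself differed from vehicle by -0.11 to 0.07, with adjusted p from 0.292 to 0.965.

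Of 14 genes known as outputs of the liver clock, the higher ones numbered 3, 3, 1 and 0 over the 4 times, beside the same 1.68%, 2.29%, 2.49% and 2.86% of all genes. The lower ones numbered 1, 3, 3 and 4, beside 2.34%, 3.03%, 2.05% and 1.82%, and the list had medians of 0.26, 0.04, -0.05 and -0.29. Cyp7a1, the rate-limiting enzyme of bile acid synthesis, was lower by -1.17, -1.29 and -1.37 at 3, 6 and 9 h. At 24 h it differed by -1.25 with a wider spread (SE 0.55, limma adjusted p = 0.103) and was not called. Lpin1, a phosphatidate phosphatase, was higher by 2.73 at 3 h, at 11.82 after APAP and 9.09 after vehicle, beside 12.35 in the untreated mice. Its vehicle mice were thus lower than the untreated mice by -3.26, a call, and its APAP mean was also below the untreated mean. Upp2, a uridine phosphorylase, was lower by -2.85 at 9 h and -2.12 at 24 h. Elovl3, which lengthens fatty acids, was higher by 1.10 and 0.94 at 6 and 9 h and lower by -2.44 at 24 h.

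Known inputs to the liver clock were followed through 2 lists. Of 8 glucocorticoid response genes, 6, 4, 3 and 1 were higher at 3, 6, 9 and 24 h, and 0, 1, 1 and 0 lower, with medians of 0.91, 0.74, 0.09 and 0.23. Of all genes, 1.68%, 2.29%, 2.49% and 2.86% were higher and 2.34%, 3.03%, 2.05% and 1.82% lower, so that at 24 h the 1 gene of 8, Fkbp5 (0.78), stands beside 2.86%. Dusp1, a phosphatase, was higher by 2.89 at 3 h, and Zbtb16, a transcription factor, by 2.37. Dusp1 was then 13.01 after APAP and 10.11 after vehicle, beside 10.61 in the untreated fasted mice. Zbtb16 was 9.54, 7.18 and 9.94 in the same order. Its vehicle mice were thus lower than the untreated mice by -2.76, a call, and its APAP mean was also below the untreated mean. Tsc22d3, also a classic target of the receptor, was lower by -1.20 at 6 h. Of 14 fasting and feeding genes, the higher ones numbered 7, 4, 4 and 0 and the lower ones 2, 3, 4 and 4, beside those shares of all genes, with medians of 0.64, 0.42, 0.04 and -0.47. Igfbp1 and Fgf21, raised in fasting, were higher by 4.29 and 3.34 at 3 h. After vehicle at 3 h, against the untreated fasted mice, 6 of these 14 were lower, beside 0.853% of all genes, Igfbp1 by -3.33 and Angptl4, a lipase inhibitor, by -2.20. The part of feeding or of glucocorticoids in the clock differences was not tested, and food intake was not given in the sources used here.

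**Figure D4:**
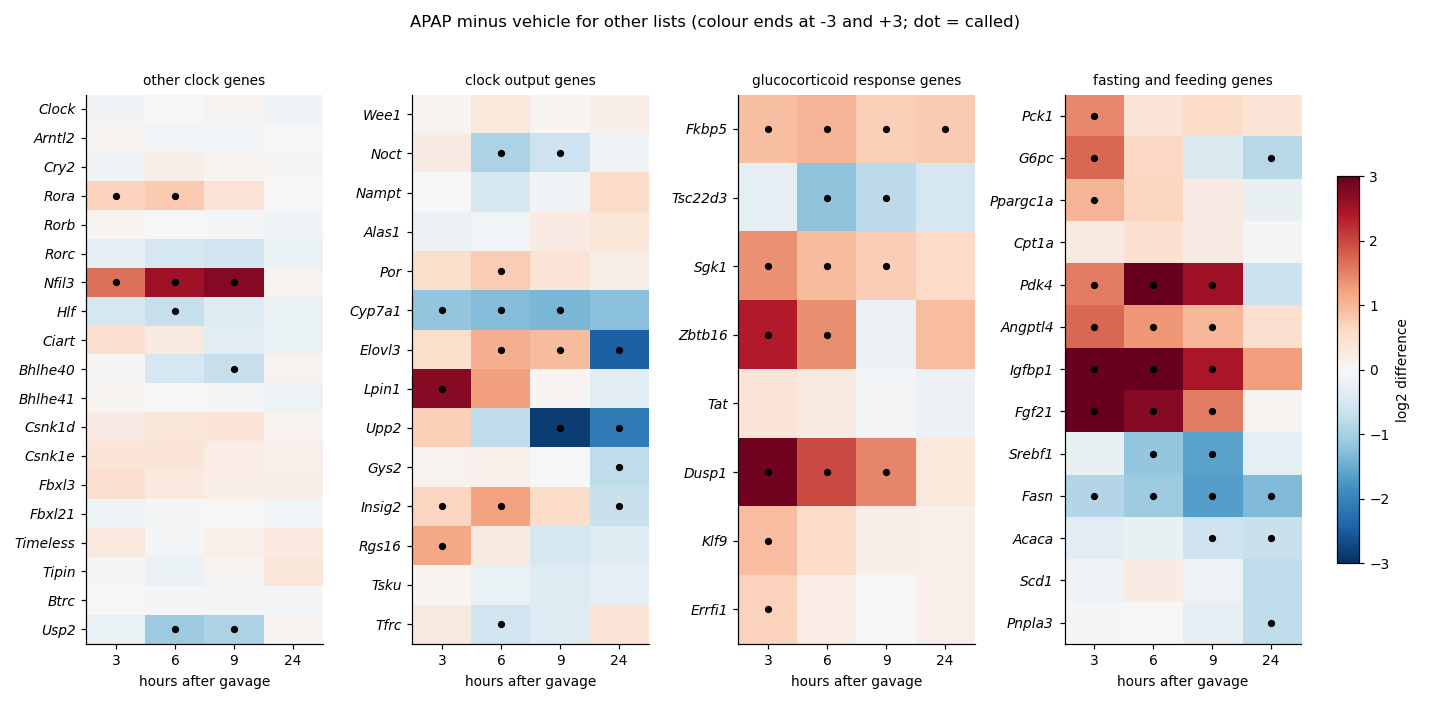
Colour gives the limma log2 difference, APAP minus vehicle, for genes (rows) of 4 lists at 3, 6, 9 and 24 h (columns); the scale ends at -3 and +3, and a black dot marks a call. Nfil3 is higher in 3 of the 4 columns, up to 2.75, most of the 19 other clock genes have no dot, and Igfbp1 (4.29 at 3 h) lies past the end of the scale.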

How the data were processed

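Liver RNA of 45 mice was measured on Affymetrix mouse genome arrays, 1 array per mouse. The deposited values are log2 values. The authors obtained them by RMA (affy 1.64.0, R 3.6.1) with a BrainArray probe grouping, which gives 1 value for each of 18180 Entrez genes, and they were used with no further normalization. A second deposited sheet paired the Entrez number of each gene with a symbol, an identifier with no unit (18177 genes), and its 45 value columns, which no label ties to a mouse, were not used. Members were found by symbol.

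Groups came from the sample labels. Each test was a two-sided limma fit (version 3.58.1, R 4.3.3, lmFit with eBayes and Benjamini-Hochberg adjustment over all genes), with 10 arrays for each comparison of 2 groups, 20 for each time course and 40 arrays in 8 groups for changes of the APAP effect. The authors' own limma was version 3.42.2. The procedure was tested on simulated data. Alternatives tried were the omission of single arrays, the replicate number as a block, a joint model of all 45 arrays, array weights, the trend and robust settings of eBayes (statmod 1.5.0), dropping the 25% of genes with the lowest signal, arrays re-centred on their medians, an adjusted p under 0.01 and a test against 1.5-fold. The number of arrays limits the precision.

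Named genes were the 10 members, then from each list at most 4 called and 2 not called with the largest change, and the genes most like 4 members. Members and lists were chosen with earlier results of these data known. The pancreatic genes, Clock, the cell type markers named, Tsc22d3 and a few list genes at further times were named after their values were seen. Cell type markers of hepatocytes, macrophages, neutrophils, endothelial cells, stellate cells, cholangiocytes and lymphocytes were checked between APAP and vehicle. Macrophage markers called higher were 0, 1, 2 and 3 of 8 at 3, 6, 9 and 24 h. Those of 24 h were Cd68, Marco and Ccr2 (1.73, 1.91 and 0.95). Not called there were Clec4f, Timd4, Vsig4, Adgre1 and Csf1r (-0.59, -0.33, -0.27, -0.03 and 0.10). Endothelial markers called higher were 1 of 6 at each time, cholangiocyte markers 0, 0, 1 and 1 of 5, and lymphocyte markers 0 of 6 at each time. Stellate markers were 0 higher, and 1 of 6 lower at 6 and 24 h. Of all genes, 1.68%, 2.29%, 2.49% and 2.86% were higher at the 4 times, and 3.03% and 1.82% lower at 6 and 24 h. Promoter windows came from RefSeq (GRCm38.p6). Some genes are counted in their lists and not reported here by name.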

Additional observations from a re-analysis of the deposited data

Results flagged for a closer look

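Of 90 sets of 5 mice, 6 held a mouse that stood far from the other 4, where chance gives about 1 in 20. Arntl was 9.93 in APAP 6 h replicate 1, with the others between 9.19 and 9.39. Npas2 was 7.39 in untreated replicate 4, with the others between 6.81 and 6.92, and Nr1d2 was 9.75 in the same mouse, with the others between 10.01 and 10.10. Per3 was 6.10 in vehicle 3 h replicate 1, with the others between 6.45 and 6.56, and Nr1d2 was 9.28 in that mouse, with the others between 9.83 and 9.99. Dbp was 6.92 in APAP 24 h replicate 2, with the others between 7.46 and 7.66.

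6 differences between APAP and vehicle changed between times by a limma interaction test over 40 arrays. From 6 to 9 h the Nr1d1 difference changed by -1.27 (SE 0.31, adjusted p = 0.0178), and from 9 to 24 h that of Arntl by -0.72 (SE 0.25, adjusted p = 0.0484). From 3 to 24 h the changes were -0.64 for Arntl (adjusted p = 0.0371), 0.98 for Per2 (adjusted p = 0.00649), -0.99 for Nr1d1 (adjusted p = 0.0118) and -0.88 for Nr1d2 (adjusted p = 2.94e-04).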

How the results depend on the processing

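Of 396 counts of called members under an alternative, 351 stayed within 1.5 times, and of 650 log2 differences between APAP and vehicle, 622 kept their direction and their side of the threshold. The shares of all genes given above are for the main setting only. None is given for the alternatives of this section, so their counts cannot be set against all genes. At an adjusted p under 0.01 the called members were 2 at 3 h, 1 at 24 h, 0 for the change from 6 to 9 h, 0 from 9 to 24 h and 2 from 3 to 24 h. Tested against a change of 1.5-fold, which asks for more than the threshold, they were 1 at 3 h and 0 at 6, 9 and 24 h, 3 for vehicle 9 h and 0 for vehicle 24 h, and 0 for the changes from 6 to 9, 9 to 24 and 3 to 24 h. Array weights gave 2 for vehicle 3 h and 0 for 9 to 24 h, and trend and robust moderation or re-centring gave 0 for 9 to 24 h. Without APAP 24 h replicates 1 and 3, chosen after seeing the data, 24 h kept 1 call, 9 to 24 h had 0, and Npas2 at 24 h turned from -0.10 to 0.0652. With 1 array left out, counts ran from 1 to 2 for vehicle 3 h and for vehicle 24 h, from 0 to 1 for 3 to 6 h and from 0 to 2 for 9 to 24 h, and Tef at 3 h ran from -0.124 to 0.0542, and array weights gave it 0.0654. These Tef and Npas2 values were not called in any of these fits. The cause of these moves was not tested.

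The replicate numbers do not pair the mice: of 20 same-numbered pairs, 3 correlated above 0.1 (from -0.27 to 0.40), and 4 correlated best with their own number. With a replicate block the called members were 4, 4, 4 and 3 at 3, 6, 9 and 24 h and 8 in each time course, where Cry1 lost its call after APAP. The genes nearest to a member were less settled: with a span of 1.5-fold, 2 of 4 for Arntl, 3 for Nr1d1, 1 for Dbp and 2 for Per1 were the same genes, and over 45 arrays 3, 0, 4 and 1.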
